A study of Mus musculus with 11 samples.

Results

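The semaphorins, plexins, neuropilins, ephrins, Eph receptors, Slits, Robos, netrin 1 and Dcc are the classical axon guidance ligands and receptors. They were taken by symbol from the protein-coding genes of mouse chromosomes 1 to 19 and X: Sema, Plxn, Epha, Ephb, Efna, Efnb, Slit and Robo genes, without the Slitrk genes, plus Nrp1, Nrp2, Dcc and Ntn1. This gave 62 of 21627 genes, of which 20 were semaphorins, 11 plexins and neuropilins, 8 ephrins, 14 Eph receptors, 7 Slit and Robo genes and 2 netrin 1 and Dcc. By role, 32 encode ligands and 30 receptors. The symbols, and no peak value, decide which genes are members.

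Guidance ligands steer growing axons and migrating cells by attraction or repulsion. Semaphorins act through plexins, with neuropilins as co-receptors for the secreted ones, ephrins act through Eph receptors in both directions between touching cells, Slits act through Robos, and netrin 1 acts through Dcc. In the embryonic forebrain these systems also act on neural progenitors, their boundaries and blood vessels. Supratentorial ependymoma is a brain tumour of that region, often driven by a fusion of ZFTA and RELA, in which RELA brings the DNA binding and activating parts of the NF-kappaB subunit p65.

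The data were 11 CUT&RUN peak lists from 2 mouse tumour-derived lines, M00002 and M00001, each listed with 1 mouse. CUT&RUN cuts and sequences DNA around an antibody's target in permeabilised cells. Both lines carried an HA-tagged fusion, labelled CRfus1 and taken here as ZFTA-RELA from the series title; they were grown without treatment in neural basal medium with growth factors. Libraries of HA and IgG exist for both lines. M00002 alone was profiled for H3K27ac, with antibodies ac4729 and ac647, and for p65. M00001 alone was profiled for the coactivators Cbp and p300 and for the polymerase subunit Rpb1, with antibodies labelled S2 and S5. The age of the mice, the promoter that drove the fusion and a fusion-free line were not given in the sources used here. H3K27ac marks active promoters and enhancers, Cbp and p300 are the acetyltransferases that write it, and S2 and S5 are taken as Rpb1 phosphorylated at those serines, forms known from elongating and initiating RNA polymerase II. The antibody to p65 may also see the RELA part of the fusion, so p65 peaks are given as measured.

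After peaks that overlapped IgG of the same line were removed, 29176 HA peaks remained in M00002 and 8121 in M00001. The other target lists held from 5474 peaks (Cbp) to 28849 (ac4729), and IgG held 5932 and 1592. The deposited lists hold no read counts, so depth is unknown, and a peak missing from the smaller M00001 list is not absence of binding. A 120 bp tag, unexplained in the sources used here, stands in the names of 2 lists, HA and p65 of M00002, so for HA the line and this tag cannot be told apart. An unexplained code is common to the titles of 4 M00001 libraries (both coactivators and both polymerase antibodies). Of 8 radial glia markers 5 had H3K27ac of both antibodies (Sox9, Hes1, Nes, Vim and Slc1a3), against 2 of 6 neuronal, 1 of 6 leukocyte and 4 of 5 endothelial markers and 24.5% of all genes.

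A gene was counted for a list when a peak lay in the gene or within 5 kb of its ends. Every target had 1 library per line, so no count below carries a test. The exact Clopper-Pearson 95% intervals cover only counting error over genes or, for peak overlaps, over peaks. Guidance genes are long, with a median of 42.3 kb against 17.3 kb over all genes, from 4.636 kb (Efna4) to 1555.5 kb (Robo2), and long genes catch more peaks. Each share is therefore given beside that of all genes and that of other genes weighted to the members' 5 classes of length. Fold enrichment is the authors' value at the peak summit over the peak caller's background and is used only within a list.

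The start regions of 4 guidance genes are shown because they hold the HA peaks nearest to a listed start in both lines or an NF-kappaB motif under an HA peak. Promoters of 300 bases (250 before to 50 after a start, RefSeq, GRCm38.p6, the assembly behind mm10) matched 53 of the 62 genes, with 69 promoters. In the first 3, capitals mark bases covered by HA peaks of both lines, 136 at Efnb1, 82 at Ephb3 and 76 at Plxna3. In Ephb1, capitals mark the NF-kappaB motif, which lay inside an HA peak of M00002 (chr9:102354678-102354815). That peak was among the weakest of its list (fold 2.83, −log10 q 0.483), with no p65 and no HA of M00001 at the promoter. Efnb1 is at chrX:99135811-99136110 (+), Ephb3 at chr16:21204545-21204844 (+), Plxna3 at chrX:74328816-74329115 (+) and Ephb1 at chr9:102354644-102354943 (−).
Efnb1: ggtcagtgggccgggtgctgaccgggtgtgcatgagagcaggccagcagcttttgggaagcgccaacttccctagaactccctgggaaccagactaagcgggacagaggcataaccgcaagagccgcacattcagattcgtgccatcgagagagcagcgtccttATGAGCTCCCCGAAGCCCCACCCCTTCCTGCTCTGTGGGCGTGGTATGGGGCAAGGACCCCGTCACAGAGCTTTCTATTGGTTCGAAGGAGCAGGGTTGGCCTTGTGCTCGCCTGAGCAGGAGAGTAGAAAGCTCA
Ephb3: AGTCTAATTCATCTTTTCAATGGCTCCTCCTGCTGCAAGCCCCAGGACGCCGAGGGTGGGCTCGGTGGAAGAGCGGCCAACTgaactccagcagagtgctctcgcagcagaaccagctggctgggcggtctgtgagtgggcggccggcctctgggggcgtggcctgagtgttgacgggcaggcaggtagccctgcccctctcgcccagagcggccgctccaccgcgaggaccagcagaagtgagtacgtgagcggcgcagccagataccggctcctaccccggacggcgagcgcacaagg
Plxna3: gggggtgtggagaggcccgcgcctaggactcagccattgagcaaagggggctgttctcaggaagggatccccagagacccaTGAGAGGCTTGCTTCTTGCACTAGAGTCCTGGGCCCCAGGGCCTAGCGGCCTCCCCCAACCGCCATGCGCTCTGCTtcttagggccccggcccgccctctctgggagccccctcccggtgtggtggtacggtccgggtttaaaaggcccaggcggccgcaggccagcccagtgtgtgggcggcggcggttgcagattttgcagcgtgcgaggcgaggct
Ephb1: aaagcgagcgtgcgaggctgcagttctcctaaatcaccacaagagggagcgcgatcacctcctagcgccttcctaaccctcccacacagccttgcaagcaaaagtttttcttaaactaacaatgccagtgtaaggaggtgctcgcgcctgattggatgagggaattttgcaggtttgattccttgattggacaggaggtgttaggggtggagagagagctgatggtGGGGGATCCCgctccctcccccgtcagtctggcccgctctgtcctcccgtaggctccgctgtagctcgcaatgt

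HA of M00002 lay at 9 of the 69 member promoters (13.0%, against 17.2% of 21044 promoters of the same length), and HA of M00001 at 5 (7.25% against 7.35%). The promoters with M00002 HA belonged to Efna2, Efnb1, Epha7, Ephb1, Ephb3, Ephb4, Plxna3 and Sema4b, and those with M00001 HA to Efnb1, Ephb3, Ephb6, Plxna3 and Sema7a. p65 lay at 3 (Efnb1, Ephb3 and Ephb4; 4.35% against 10.2%), ac4729 at 8 (11.6% against 23.7%), S2 at 20 (29.0% against 36.6%) and S5 at 10 (14.5% against 17.6%). The NF-kappaB motif, searched on both strands, was in 7 member promoters (10.1% against 4.86%): Efna2, Ephb1, Ephb2, Sema4a, Sema4b, Sema4c and Sema6c. It lay under an HA peak of M00002, the weak one named above, at Ephb1 and at none of the other 6 promoters, and none of the 7 had p65. GGGGCC was in 21 (30.4% against 29.7%), TGACTCA in 2 (2.90% against 4.69%) and CACGTG in 5 (7.25% against 7.91%), on either strand. A match is a run of letters and not a shown binding site.

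HA was found at most guidance genes in M00002 and at 26 of 62 in M00001. In M00002, 48 of 62 members had HA (77.4%, interval 65.03 to 87.1), against 49.7% of all genes and 61.8% of length-weighted other genes. In M00001 the share was 41.9% (interval 29.5 to 55.2), against 22.5% of all genes and 28.8% length-weighted. HA was present in both lines at 22 members (35.5%, interval 23.7 to 48.7; 19.9% of all genes, 25.9% length-weighted), in M00002 alone at 26, in M00001 alone at 4 (Sema3e, Epha3, Ephb6 and Robo3) and in neither at 10. The counts for M00002 alone, M00001 alone and neither were not set against other genes. With 20 length classes, chosen after the data were seen, the other genes came to 65.6% for M00002 HA, which lies inside the members' interval, to 32.1% for M00001 HA, also inside its interval, and to 29.3% for HA in both lines. The call at the same place was rarer: 14 members (22.6%, interval 12.9 to 35.0) held HA peaks of both lines that overlapped each other, against 15.5% of all genes and 18.8% length-weighted. That interval held both comparison shares. The other 8 members with HA in both lines had it at different places: Nrp1, Plxna2, Plxnc1, Robo2, Sema3d, Sema5b, Sema6d and Ephb1.

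IgG of M00002 was also more frequent at guidance genes, at 18 members (29.0%) against 11.2% of all genes, 17.8% length-weighted and 22.6% with 20 classes. IgG of M00001 was at 4 (Sema5b, Plxnd1, Slit3 and Dcc), or 6.45%, against 3.50% of all genes and 5.61% length-weighted. Among the 44 members without IgG of M00002, 31 had HA of M00002 (70.5%) and 24 had p65 (54.5%), against 47.3% and 30.9% of other genes without it. These shares of other genes are not length-weighted, so gene length is not accounted for in them. Of the 22 members with HA in both lines 12 had no IgG peak of either line, and of the 14 with a shared site 10 had none. The part of IgG signal elsewhere in the window in these counts was not tested.

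**Figure D1:**
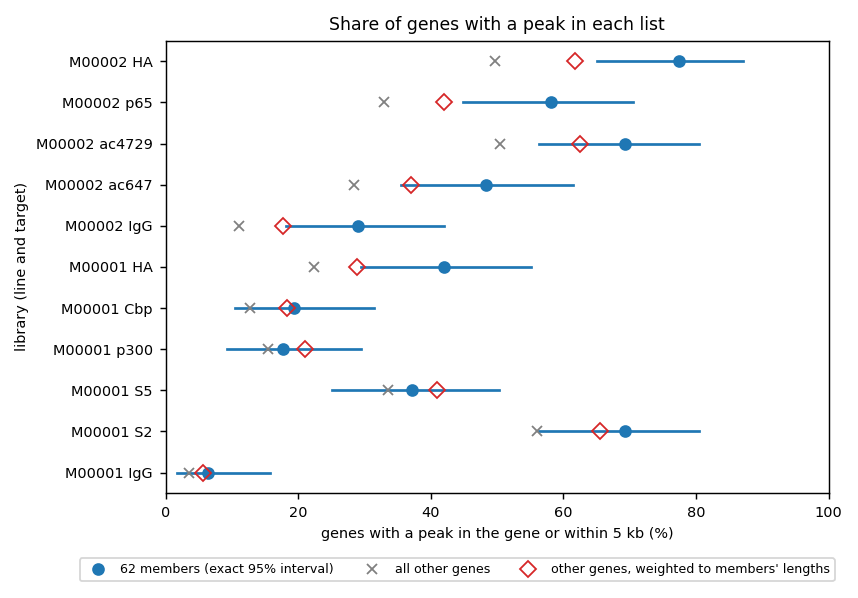
Percent of genes with a peak in the gene or within 5 kb, for each library (line and target). Circles are the 62 guidance genes with exact 95% intervals, crosses all other genes and diamonds other genes weighted to the members' length classes. The circle lies right of the diamond for HA and IgG of both lines, p65, both H3K27ac lists, Cbp and S2, and left of it for p300 and S5.

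Counted per base, HA peaks of M00002 were spaced at guidance genes about as in other genes of their length, at 1.33 per 100 kb of window against 1.16 in other genes weighted to the members' lengths over 20 classes. Without that weighting the other genes had 1.78, because short genes hold more peaks per base. For HA of M00001 the densities were 0.326 and 0.284 length-weighted, for p65 0.611 and 0.576, for ac4729 1.21 and 1.28, and for ac647 0.707 and 0.669. For polymerase they were 0.786 and 0.938 (S2) and 0.238 and 0.360 (S5), and for IgG of M00002 0.230 and 0.191. These densities carry no interval or test. Of the 168 HA peaks of M00002, 20 (11.9%) lay within 1 kb of a gene end, against 18.8% of peaks at other genes of the same lengths and 29.3% without length weighting. For ac4729 the share was 11.1% against 17.6% length-weighted, and for ac647, with 2 of 89 peaks, 2.25% against 13.7%.

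Length class by class, the picture was uneven. In the longest class, from 57.8 kb, 13 of 29 members had HA in both lines (44.8%) against 33.1% of other genes, but 5 had a shared site (17.2%) against 21.8%. For p65 the members of middle length stood higher, with 10 of 15 between 11.9 and 24.9 kb (66.7%, against 31.6%) and 8 of 12 between 24.9 and 57.7 kb (66.7%, against 36.3%), whereas in the longest class the shares were 55.2% and 52.3%.

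**Figure D2:**
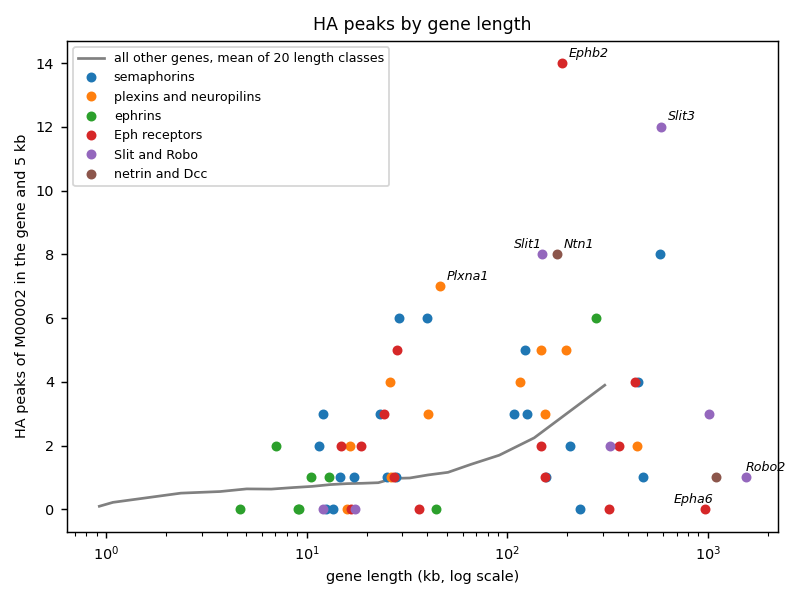
Number of HA peaks of M00002 in each guidance gene and 5 kb around it (points, coloured by family) against gene length in kb on a log scale. The grey line is the mean of all other genes in 20 length classes. Ephb2 with 14 peaks, Slit3 with 12 and Ntn1 and Slit1 with 8 each lie above the line, and Robo2, the longest member, with 1 and Epha6 with 0 lie below the level of its right end.

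Among the secreted class 3 semaphorins, which repel axons through neuropilins and plexin A receptors, Sema3f and Sema3b had the strongest HA. Both lie close together on chromosome 9. HA peaks numbered 6 (M00002) and 2 (M00001) at Sema3f, and its leading site (chr9:107697819-107698026 in M00002, 12.6 kb inside the gene from its nearer end) had fold 14.8 and 7.54, with p65 and both H3K27ac antibodies at the same place. Sema3f also had S2 peaks over 6.51% of its length. Sema3b had its shared site (chr9:107609150-107609365, fold 11.7 and 6.62) 0.02 kb from a gene end, with p65 and both H3K27ac lists, and the same peak lies in the window of Gnai2, a G protein subunit gene, so it cannot be assigned to either gene.

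The other class 3 members differed. Sema3a, a collapsing signal for cortical axons, had 12 peaks with each H3K27ac antibody (2616 bp shared) and 6 S2 peaks, but 1 HA peak of fold 2.99, no p65 and no HA in M00001. Sema3e had H3K27ac of both antibodies without HA in M00002, the 1 member of which this was true, and 1 HA peak of fold 3.48 in M00001. Sema3g had no peak in any of the 9 target lists, as did Epha10 and Plxnb3.

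At Sema3d and Sema3c, Cbp and p300 were both found. Sema3d had fold 5.15 for Cbp and 6.65 for p300, and Sema3c 4.12 and 4.06. At Sema3d those 2 peaks and the HA peak of M00001 overlapped IgG of M00002 (fold 4.78 at the strongest), a region that is not in the IgG list of M00001. The part of this background in those values was not tested.

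The transmembrane semaphorins had p65 at 10 of 12 members and the GPI-anchored one had it too, whereas the secreted ones had it at 2 of 7, beside 33.0% of all genes; the difference between them was not tested. Sema7a, the GPI-anchored one, which signals through plexin C1 and integrins, had a shared site at -1516 bp from a listed start with fold 5.27 and 6.64. Sema4d, which signals through plexin B1, had its shared site at -4721 bp from a listed start with fold 10.7 and 3.43, and the M00001 peak was weak (−log10 q 0.750). Sema4c had 3 HA and 3 p65 peaks in M00002 and S2 over 6.51% of its length, the highest share of all members, and no HA in M00001. Sema6d had 2406 bp of H3K27ac shared by both antibodies. Sema5b was the 1 member with a peak in all 9 target lists, but it had no shared HA site, and its strongest M00001 values were low (HA 3.48, Cbp 2.88, p300 3.43). Sema5a and Sema6d were among the 4 members with the most IgG peaks, together with Sema3d, at 3 each, and Slit3, at 3 over both lines.

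The plexins, the receptors that act on small GTPases and integrins, held the strongest HA site of the whole set. Plxnb1, the receptor of Sema4d, had fold 19.5 in M00002 (chr9:109105077-109105318) and 8.36 in M00001 (chr9:109104898-109105229), inside the gene 9710 bp after a listed start. A second M00002 peak (fold 10.0) overlapped the same M00001 peak, and p65 (10.8 at the strongest) and both H3K27ac lists lay there. Plxna1, the signalling partner of neuropilin 1 for Sema3a, had 3 shared sites among 7 M00002 and 3 M00001 peaks. The strongest (chr6:89360601-89360702) had fold 8.76 and 5.17, with both H3K27ac antibodies and no p65, and it and a weaker one also lie in the window of the predicted gene Gm40415. The third (chr6:89345014-89345202) had fold 6.61 and 6.58 with H3K27ac, S2 and S5. Plxna3 had fold 7.46 and 3.48 at its promoter site, where the M00001 peak was weak (−log10 q 0.750).

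Plxna4 and Nrp2 had some of the strongest HA of M00002 and none in M00001. Plxna4 held a site of HA fold 17.9 and p65 fold 11.4 (chr6:32559063-32559299), and Nrp2, the co-receptor for Sema3f, one of 13.9 and 13.0 (chr1:62728454-62728651), the highest p65 value of any member. Plxnd1, the receptor of Sema3e, singled out after its values were seen, had fold 11.4 for HA and 9.99 for p65 and no H3K27ac peak. Nrp1, the co-receptor for Sema3a, likewise singled out, differed from Nrp2: 5 HA peaks of at most 3.69 in M00002, 1 of 3.48 in M00001, no p65 and no H3K27ac. None of the 11 plexins and neuropilins had Cbp or p300, against 22.4% of all genes with either, and 16 members (25.8%, interval 15.5 to 38.5; 30.5% of length-weighted other genes) had either in all.

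**Figure D3:**
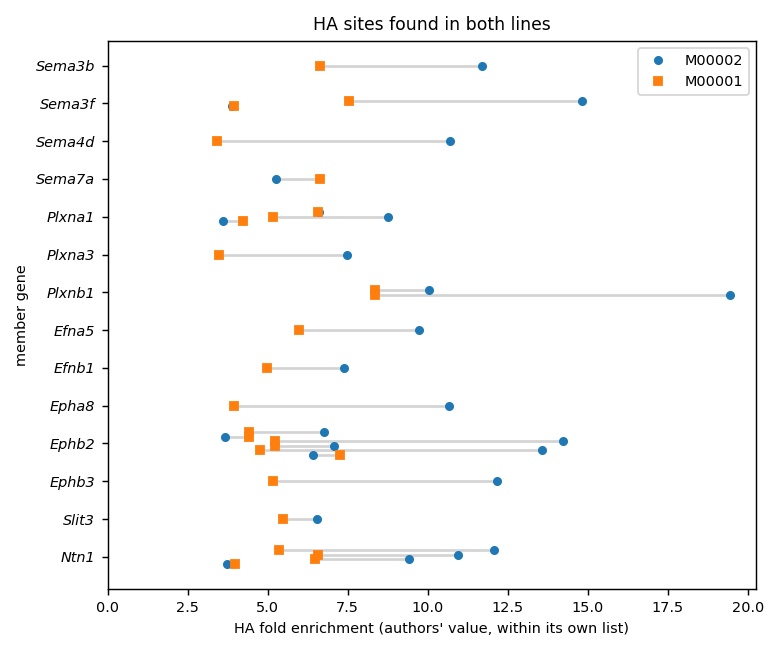
Fold enrichment of the 26 shared HA sites in 14 guidance genes. Each bar joins the value in M00002 (circle) and in M00001 (square) of 1 pair of overlapping peaks; each value is relative to its own list, so the length of a bar measures nothing. Plxnb1 lies farthest right in M00002 at 19.5 and also holds the highest M00001 value, 8.36.

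Among the ephrins, membrane-bound ligands of Eph receptors, 4 of 8 had HA of M00002, beside 49.7% of all genes. Efna5, which shapes topographic maps and cortical areas, had the most peaks: 6 HA peaks, 4 p65 peaks, 14 ac4729 and 10 ac647 peaks with 3289 bp shared by both antibodies, the widest of all members, and 8 S2 peaks. Its shared site (chr17:62598854-62599075, fold 9.72 and 5.97) lay 3.943 kb beyond a gene end, with p65, both H3K27ac lists and S2. Efnb1, a transmembrane ephrin, had 1 HA peak in each line, at the promoter shown above (fold 7.38 and 4.97), with 1 peak each of p65 (7.99), S5 (4.57) and S2 (4.74) at the same place and no H3K27ac peak. Efna4 had H3K27ac with ac4729 and S2 over 5.18% of its short length and no HA, but its ac4729 peak and both of its S2 peaks also lie in the window of Adam15.

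Of the Eph receptors, the B class had HA at 4 of 5 in M00002 and 4 of 5 in M00001. The A class had it at 6 of 9 and 2 of 9, beside 49.7% and 22.5% of all genes. The difference between these small classes was not tested. In M00001, HA was weak at Ephb1 and Ephb6 of the B class (fold 3.98, −log10 q 1.52 at each) and at Epha8 of the A class. Ephb2, a receptor tyrosine kinase known from forebrain progenitors and from ependymoma, held the most HA peaks of any member, 14 in M00002 and 5 in M00001, with 6 and 4 of them at shared places. The strongest (chr4:136808038-136808234) had fold 14.2 and 5.22 with p65 and both H3K27ac antibodies, and another (chr4:136811643-136811807) had 13.6 and 4.75 with p65 and ac4729. Both lie in the gene, 27853 and 24286 bp after a listed start. Ephb2 had 2763 bp of H3K27ac shared by both antibodies and 6 S2 peaks.

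Ephb3 had its shared site at the promoter shown above, with fold 12.2 in M00002 and 5.17 in M00001 and p65 at 11.7, and S5 and S2 there. S2 covered 2.89% of the gene. Epha8 had a shared site 7056 bp after a listed start with fold 10.7 and 3.93 and p65, and no H3K27ac peak; the M00001 peak was weak (−log10 q 1.501). Epha3 had the highest Cbp (6.86) and p300 (8.49) of all members. Those peaks, and HA, S2 and S5 of M00001, overlapped 1 IgG peak of M00002 (chr16:63833107-63834519, fold 8.60), and M00002 HA was absent from the gene. Removing every peak that touched IgG of any line left HA in both lines at 21 members and Cbp or p300 at 14. Epha6 had Cbp at 4.12 and p300 at 3.32, and Ephb1 had 3.09 and 3.32, beside list medians of 3.43 for Cbp and 3.84 for p300.

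The Slits, secreted repellents of axons and migrating neurons, differed from one another. Slit3 held 12 HA peaks of M00002 and 2 of M00001, with a shared site deep in the gene (chr11:35295397-35295714, fold 6.54 and 5.48, 174 kb from the start). Slit1 had 8 HA peaks up to fold 12.8 and 6 p65 peaks up to 11.2 in M00002, with no H3K27ac peak and no HA in M00001. Slit2 had 2 HA peaks of at most 2.99. The Robo receptors had no shared site, although Robo1 had 9 ac4729 peaks, up to fold 10.2. Robo3 and Robo4 are neighbours and share their 1 p65 peak.

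Ntn1, an attractant of commissural axons, carried 4 shared sites, more than any member but Ephb2. They had fold 12.1 and 5.36 (chr11:68215502-68215687), 11.0 and 6.56 (chr11:68216462-68216685), 9.43 and 6.48 (chr11:68313649-68314159), and 3.74 and 3.98 at a gene end. The first 3 had p65 and both H3K27ac antibodies, and the third also had Cbp. In M00002, 6 of its 8 HA peaks overlapped p65, and 2835 bp were H3K27ac with both antibodies. Its receptor gene Dcc had 1 HA peak of fold 2.99 and 5 ac4729 peaks.

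**Figure D4:**
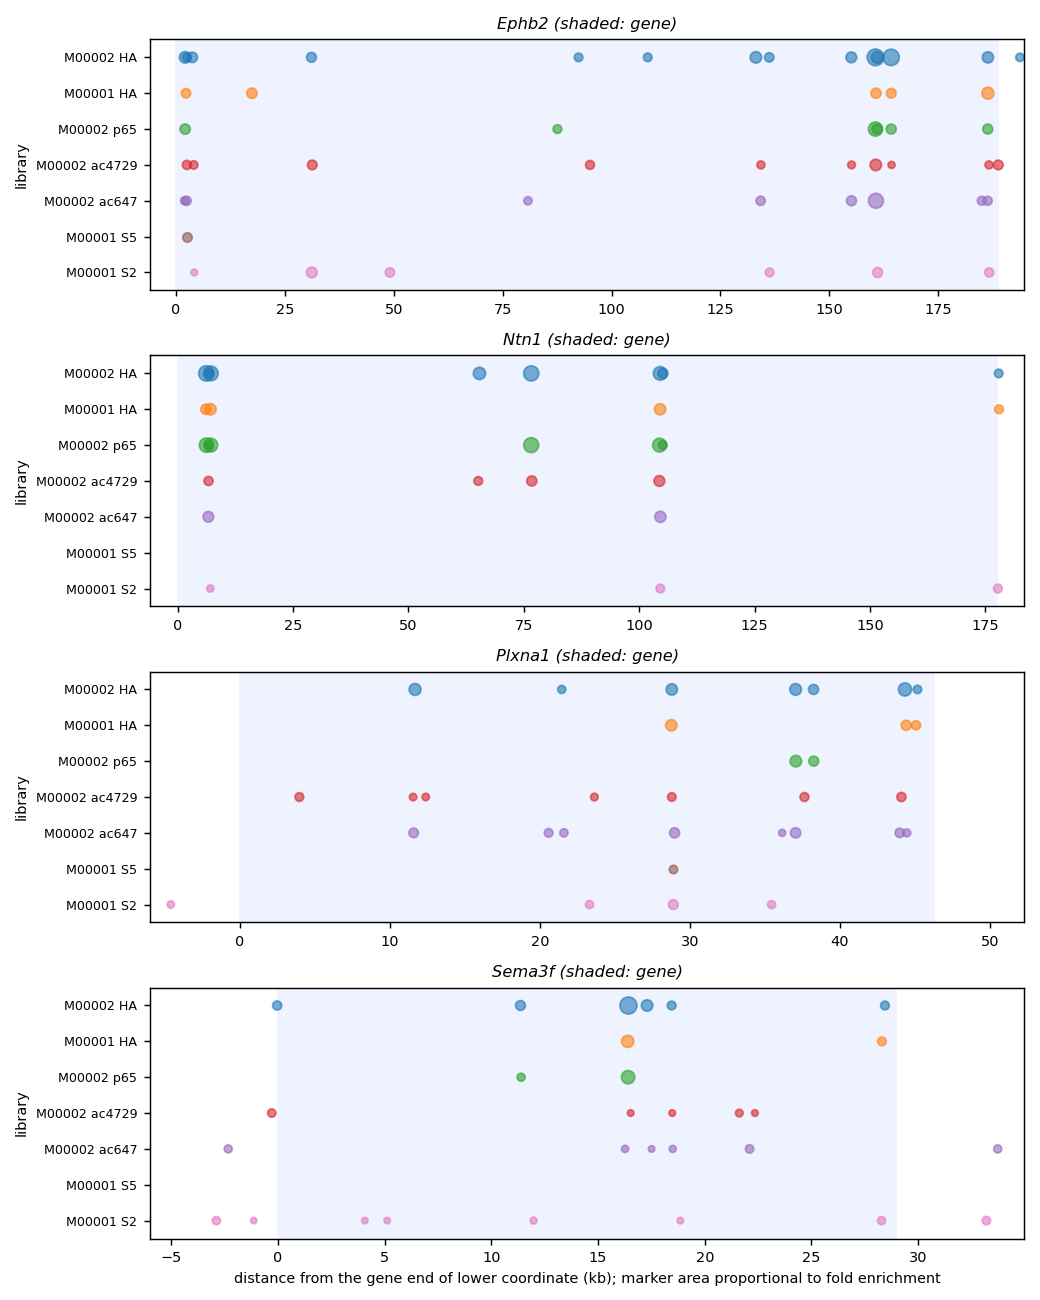
Peaks of 7 lists along Ephb2, Ntn1, Plxna1 and Sema3f, as distance in kb from the gene end of lower coordinate; shading marks the gene and marker area is proportional to fold enrichment within the list. HA of both lines, p65 and H3K27ac stack at a few places, as at the strongest shared sites of Ephb2 (fold 14.2 in M00002) and Ntn1 (12.1), while the shared sites of Plxna1 have no p65.

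In all, the 14 genes held 26 HA peaks of M00002 that overlapped 23 of M00001. Their fold ran from 3.61 to 19.5 in M00002 (median 9.10) and from 3.43 to 8.36 in M00001 (median 5.22), while the 142 other member HA peaks of M00002 had a median of 4.25 and a highest value of 17.9. Of the 26 sites, 19 overlapped p65, 17 ac4729, 15 ac647 and 14 both of these, by the M00002 peak. By the M00001 HA peak, 10 overlapped S2, 5 S5, 1 Cbp and 1 p300. Shared sites at other genes were not counted in this way, so these overlaps cannot be called particular to guidance genes. Of the 16 with a listed start, 3 lay within 1 kb of it. Among those without one, sites at Sema3b (0.02 kb), Ntn1 (0.43 kb) and Sema3f (0.509 kb) lay within 1 kb of a gene end. Of all 26, 13 were inside the gene over 5 kb from its ends. At −log10 q of at least 5 in both lines, 10 sites in 7 genes were left: Efna5, Ephb2, Ntn1, Plxna1, Plxnb1, Sema3b and Sema3f.

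Peak by peak, the HA peaks at guidance genes overlapped other lists at shares whose intervals held those at other genes. These intervals count peaks as independent, although many lie in the same gene (14 of M00002 in Ephb2), so they are too narrow. The shares at other genes are not length-weighted. Of 168 HA peaks of M00002, 31.5% overlapped p65 (interval 24.6 to 39.2) against 37.2% in other gene windows, 34.5% ac4729 (27.4 to 42.2) against 41.3%, and 15.5% HA of M00001 (10.4 to 21.8) against 18.7%. Of 41 HA peaks of M00001, 56.1% overlapped HA of M00002 (39.8 to 71.5) against 62.6%, 36.6% S2 (22.1 to 53.1) against 49.8%, and 7.32% p300 (1.54 to 19.9) against 19.8%. Taken from the other lists, 69.7% of p65 peaks overlapped HA of M00002 against 70.3%, and 15.2% of S2 peaks overlapped HA of M00001 against 14.3%.

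p65 was found at 36 members (58.1%, interval 44.8 to 70.5), against 33.0% of all genes, 42.0% length-weighted and 45.9% with 20 classes. The share with 20 classes lies inside the members' interval. Of these, 31 also had HA of M00002 and 5 did not (Efna3, Epha6, Robo3, Robo4 and Sema6c). Another 17 members had HA of M00002 without p65. These counts of p65 with and without HA were not set against other genes. By role, 20 of 32 ligands and 16 of 30 receptors had p65. The strongest p65 peaks were at Nrp2 (13.0), Ephb3 (11.7), Plxna4 (11.4), Ntn1 (11.3), Slit1 (11.2) and Plxnb1 (10.8).

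Antibody ac4729 gave a peak at 43 members (69.4%, interval 56.3 to 80.4), against 50.6% of all genes and 62.4% length-weighted. Antibody ac647 gave one at 30 (48.4%, interval 35.5 to 61.4), against 28.4% and 37.0%. Both length-weighted shares lie inside the members' intervals. H3K27ac of both antibodies at overlapping places marked 23 members (37.1%, interval 25.2 to 50.3), against 24.5% of all genes and 32.3% length-weighted. Semaphorins had it at 11 of 20 and plexins and neuropilins at 6 of 11, whereas Eph receptors had it at 2 of 14 and ephrins at 1 of 8. HA of M00002 without either H3K27ac list was seen at 9 members, a count not set against other genes: Nrp1, Plxnd1, Slit1, Efnb1, Efnb3, Epha8, Sema4a, Sema4g and Sema6b. Among the 23 members, a restriction chosen after the data were seen, 12 had HA in both lines (52.2%), against 50.1% of all genes with both H3K27ac antibodies, 7 a shared site (30.4%, against 42.5%), 16 p65 (69.6%, against 70.6%), 18 S2 (78.3%, against 87.5%), 11 S5 (47.8%, against 63.0%) and 7 Cbp or p300 (30.4%, against 43.9%). Each of these 6 intervals held the share of all such genes, so with 23 members no difference from other acetylated genes was detectable. For Cbp or p300 the length-weighted share, 54.6%, lay above the members' upper bound of 52.9%.

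For polymerase, with peaks of any q, the members' intervals held the shares of length-weighted other genes. At −log10 q of at least 5 the members' shares were lower, 38.7% (24 members) against 47.7% for S2 and 3.23% (2 members) against 12.3% for S5. No intervals were computed at this threshold, so these gaps are not set against counting error. S2 was at 43 members (69.4%, interval 56.3 to 80.4; 56.1% of all genes, 65.5% length-weighted) and S5 at 23 (37.1%, interval 25.2 to 50.3; 33.6% of all genes, 40.9% length-weighted). The largest shares of gene length under S2 peaks, in percent, were small: Sema4c (6.51), Sema3f (6.51), Efna4 (5.18), Plxnb2 (4.73), Plxna1 (3.04) and Ephb3 (2.89).

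**Figure D5:**
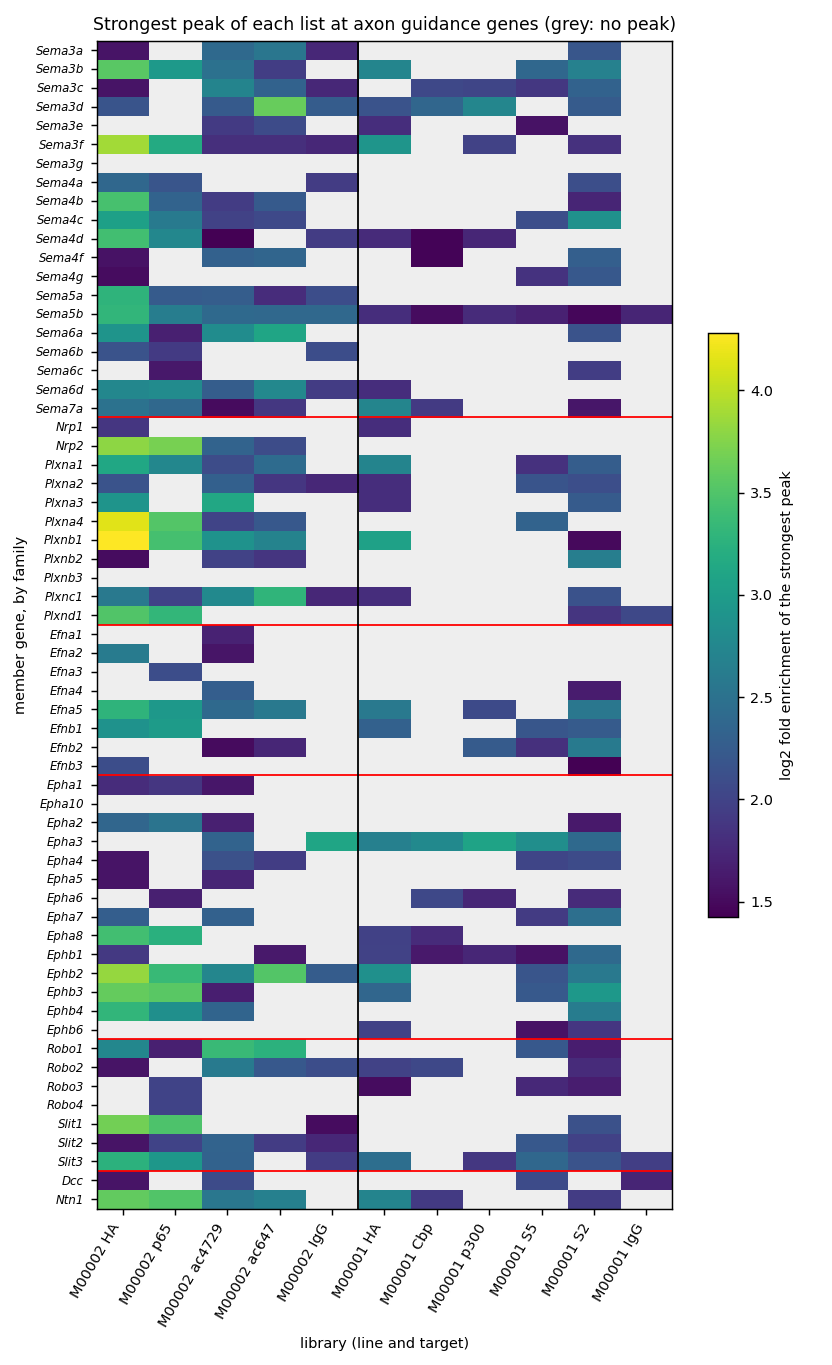
Strongest peak of each of the 11 lists at each of the 62 guidance genes, as log2 fold enrichment, with families separated by red lines and the lines M00002 and M00001 by a black line; grey is no peak, and colours compare genes within a column. HA and p65 of M00002 are bright together at Plxnb1, Plxna4, Nrp2, Sema3f, Ephb2, Ephb3, Slit1 and Ntn1, and the Sema3g, Plxnb3 and Epha10 rows are grey throughout.

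By role, HA in both lines was at 11 of 32 ligands and 11 of 30 receptors, beside 19.9% of all genes. A shared site was at 8 ligands and 6 receptors, beside 15.5% of all genes. By family, beside the same 19.9%, HA in both lines was at 7 of 20 semaphorins, 6 of 11 plexins and neuropilins, 2 of 8 ephrins, 4 of 14 Eph receptors, 2 of 7 Slit and Robo genes and 1 of 2 netrin and Dcc genes. Neither set of counts is length-weighted, and differences between roles or families were not tested.

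Outside the members, 78 other genes of the pathway were counted, with a median length of 109 kb. They are signalling genes downstream of the receptors together with 12 other netrins and their receptors, 2 repulsive guidance molecules and 8 L1 family and contactin genes. HA in both lines was at 39 of them (50.0%), beside 19.9% of all genes and 27.7% of other genes weighted to their lengths. A shared site was at 30 (15.5% and 19.2% of those), p65 at 55 (33.0% and 44.7%), H3K27ac of both antibodies at 45 (24.5% and 35.1%), Cbp or p300 at 33 (22.4% and 33.7%), S5 at 40 (33.6% and 42.2%) and S2 at 61 (56.1% and 64.7%). The exchange factors that load small GTPases had HA in both lines at 8 of 11 and the Slit-Robo GTPase activators at 3 of 3, with 32.9% of other genes of their length class. The collapsin response mediators, which carry the Sema3a signal, had it at 0 of 5, with 27.9% length-weighted. These sets are small and their differences were not tested. The genes with a shared site and the highest HA ranks were Rnd1 (fold 22.0 and 13.5), a small GTPase that binds plexins, Cfl1 (20.3 and 9.82), the actin-severing cofilin, Gsk3b (15.3 and 10.7), Trio (20.4 and 9.29), Rras (13.5 and 11.1) and Srgap1 (15.2 and 9.20). These values are the strongest HA peak of M00002 and of M00001 anywhere in the gene window. Unlike the pairs given for members, the 2 peaks need not overlap.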

How the data were processed

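CUT&RUN peak lists of 11 libraries from 2 lines were analysed, 1 list per sample, with no pooling of samples. The build mm10 and the tools MACS2, Bowtie2 2.3.5.1, deepTools, Trim Galore and FastQC are named per the submitters' processing notes, and neither their settings nor the calling control is given in the sources used here. The deposited lists hold per peak a score, a fold enrichment (ratio over background), a −log10 p (at least 3 throughout), a −log10 q and the summit's distance from the peak start, all as the authors' caller wrote them. Read depth is unknown. Peaks on chromosomes 1 to 19 and X that did not overlap IgG of the same line by 1 bp were joined to RefSeq genes of GRCm38.p6 with 5 kb on each side, with Python 3.11.15, numpy 2.4.6, pandas 2.3.3, scipy 1.17.1 and matplotlib 3.10.9. A peak near 2 genes counts for both. The counting was tested on simulated peaks. With 1 library per line and target no test was run.

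Named genes were those with a shared HA site, the 6 leading in S2 cover, H3K27ac width, p65 rank and Cbp with p300 rank, those with no peak, the 4 with the most IgG peaks, and the best HA rank per family. Others named were chosen after their values were seen. The members, lists and rule were chosen with earlier results of these data known. Alternatives were gene ends only, 25 kb windows, the 2000 strongest peaks, a stricter −log10 q (at least 5), other IgG filters, a 50% overlap, each line alone and 20 length classes.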

Additional observations from a re-analysis of the deposited data

How the results depend on the processing

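Counts of guidance genes depended mainly on the peak threshold and on the interior of long genes. With −log10 q of at least 5, HA in both lines went from 22 to 7 members, a shared HA site from 14 to 7, p65 from 36 to 20, H3K27ac of both antibodies from 23 to 13, Cbp or p300 from 16 to 2, S2 from 43 to 24 and S5 from 23 to 2. In that order this was 11.3%, 11.3%, 32.3%, 21.0%, 3.23%, 38.7% and 3.23% of members. Length-weighted other genes had 10.8%, 10.2%, 20.1%, 14.9%, 4.20%, 47.7% and 12.3%. Within 5 kb of gene ends alone, HA in both lines was at 10, p65 at 20, H3K27ac at 7, Cbp or p300 at 6 and S5 at 14. These were 16.1%, 32.3%, 11.3%, 9.68% and 22.6% of members, against 14.7%, 26.0%, 18.7%, 15.3% and 29.2% of length-weighted other genes. With the 2000 strongest peaks of each list the 7 counts were, in the order used for the stricter q, 3, 2, 8, 4, 9, 2 and 1. That was 4.84%, 3.23%, 12.9%, 6.45%, 14.5%, 3.23% and 1.61% of members. Length-weighted other genes had 5.94%, 5.62%, 9.49%, 2.52%, 13.5%, 14.1% and 11.8%. With 25 kb windows S5 was at 36. In the main windows, 48 members had HA when the M00002 list was read by itself, whatever M00001 held. The other 37 counts stayed within 1.5 times the main count, including every one with another IgG filter or a 50% overlap. The 37 also include those listed for 20 length classes. That setting changes only the weighting of other genes, so it could not move a count of members.

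The difference from length-weighted other genes, in percentage points, changed sign for HA in both lines (9.58 to -1.10), a shared site (3.81 to -2.39), S2 (3.88 to -10.9) and Cbp or p300 (-4.64 to 1.01) with the 2000 strongest peaks, for H3K27ac (4.84 to -7.38) and S2 (-4.24) at gene ends alone, for S2 (-8.95) at the stricter q, and for S5 (-3.83 to 4.66) with 25 kb windows. The cause was not tested. The other 50 differences kept their sign, and the one for p65 did so under every alternative run. Their sizes varied. For HA in both lines those of unchanged sign ran from 0.531 (stricter q) and 1.47 (gene ends alone) to 15.6 (M00002 HA alone). For a shared site they ran from 1.07 (stricter q) to 5.21 (25 kb windows). For p65 they ran from 3.42 (2000 strongest peaks) to 16.1 (50% overlap), and for S5 from -3.73 (50% overlap) to -10.2 (2000 strongest peaks). No paired analysis was possible because each line and target has 1 library. The lists give no depth, so how many peaks each list could have held is not known.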
